A study of Mus musculus with 17 samples.

Results

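The alpha-crystallin and small heat shock genes were examined in the histone H3.3 maps of the newborn mouse lens. The 8 genes are Cryaa, Cryab, Hspb1, Hspb2, Hspb3, Hspb6, Hspb7 and Hspb8, taken by name from the 21951 protein-coding genes of the GENCODE vM21 annotation. For each gene, the window was the annotated gene body with 5 kb on each side, in the mm10 build. Every H3.3 island overlapping that window was collected in each library. An island is a stretch in which the SICER2 caller found more reads than its background model allows. Cryaa, Cryab and Hspb2 had an island in all 4 libraries, and the islands over these 3 genes were wider in both fiber libraries than in both epithelium libraries. Hspb3 had islands in the fiber libraries only, and at Hspb1, Hspb7 and Hspb8 the compartments overlapped. The Hspb6 window was more covered in both fiber libraries, but the epithelium replicates disagreed and the compartments overlapped within its gene body.

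The lens consists of an anterior epithelial sheet, whose cells divide, and of the fiber cells that arise from it, elongate and fill with crystallins. H3.3 ChIP-seq was performed on microdissected epithelium and fibers of newborn CD1 mice with an anti-H3.3 antibody, in 2 libraries per compartment. Each sample was a pool of 150 lenses, with 12 µg of chromatin per immunoprecipitation. The animals are given as P1 in the sample titles and as P0.5 in the protocol. CD1 is an outbred stock, no allele or treatment distinguishes the groups, and pooling hides any variation between animals. The bisulfite libraries and the input of the same study were not used here.

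Small heat shock proteins share the alpha-crystallin domain and assemble into large oligomers that hold unfolding proteins in solution without using ATP. In the lens, αA- and αB-crystallin are at once major structural proteins and chaperones, and mutations in either can lead to cataract. Their relatives are best known from heart and skeletal muscle or from stressed cells. Histone H3.3 is the variant that is placed into chromatin independently of DNA replication, and it is known for marking transcribed genes and active regulatory regions.

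RefSeq gives a promoter in its GRCm38.p6 build, the same build as mm10, for 6 of the 8 genes, with 7 starts in all. The 250 bases before 4 of the starts are shown, for Cryaa without the last 94, because they run from a promoter inside an island in every library (Cryaa), through 3 libraries (Hspb8) and the fiber libraries alone (Hspb3), to 1 library (Hspb1). Capitals mark motif matches on either strand: GAANNTTC, the core of the element bound by heat shock factors, TATAAA, the TATA box, and TGCTGA, part of the site of the MAF factors that act in lens. The other core arrangement, TTCNNGAA, was searched too and was absent from these 4. The Cryaa stretch is chr17:31677681-31677836 (+), that of Hspb8 chr5:116422865-116423114 (-), that of Hspb3 chr13:113663677-113663926 (-) and that of Hspb1 chr5:135887669-135887918 (+), each written 5′ to 3′ in the direction of the gene.
Cryaa: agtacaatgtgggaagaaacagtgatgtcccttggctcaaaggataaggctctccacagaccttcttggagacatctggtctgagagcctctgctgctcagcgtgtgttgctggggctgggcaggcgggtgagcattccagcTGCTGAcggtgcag
Hspb8: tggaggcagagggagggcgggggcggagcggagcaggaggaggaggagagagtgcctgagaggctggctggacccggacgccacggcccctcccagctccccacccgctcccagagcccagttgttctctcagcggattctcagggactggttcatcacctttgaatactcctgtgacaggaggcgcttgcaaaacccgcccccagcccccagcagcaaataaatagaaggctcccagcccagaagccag
Hspb3: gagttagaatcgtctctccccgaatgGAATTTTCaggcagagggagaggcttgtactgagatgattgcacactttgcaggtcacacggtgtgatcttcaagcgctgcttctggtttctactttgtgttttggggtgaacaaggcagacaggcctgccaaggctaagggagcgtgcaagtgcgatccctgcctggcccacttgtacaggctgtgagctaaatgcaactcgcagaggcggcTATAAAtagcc
Hspb1: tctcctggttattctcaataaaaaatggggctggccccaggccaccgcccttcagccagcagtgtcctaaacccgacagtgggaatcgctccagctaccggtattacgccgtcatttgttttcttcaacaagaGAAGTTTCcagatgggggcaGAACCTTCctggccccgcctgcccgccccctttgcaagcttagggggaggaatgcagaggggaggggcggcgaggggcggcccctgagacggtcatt

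The Cryaa stretch holds the MAF half-site 108 to 103 bases before the RefSeq start, which is past the first GENCODE start, at position 31677807, and so inside the first exon of a longer transcript. Hspb1 holds the heat shock core 2 times, 117 to 110 and 97 to 90 bases before its start, and Hspb3 holds it once, at 224 to 217 bases, together with a TATA box 11 to 6 bases before the start. None of these motifs was found in the Hspb8 stretch. Over the 250 bases before all 32851 RefSeq starts, 6.69% held GAANNTTC, 7.17% TTCNNGAA, 12.4% TATAAA and 16.1% TGCTGA, so a match by itself is common. The GC content of the 250 bases was 64.4% for Hspb8, 59.2% for Hspb1, 54.4% for Cryaa and 52.4% for Hspb3, the last equal to the median of all promoters. In the islands, all 250 bases of the Cryaa promoter were covered in every library, whereas 118 of the 250 bases of Hspb1, which contain both heat shock cores, were covered in fiber 2 alone.

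The 4 libraries differed in how much of the genome was called. The epithelium libraries held 10389 and 14434 islands over 45.4 and 48.9 Mb, and the fiber libraries 27059 and 35940 islands over 178 and 188 Mb. Reads in islands numbered 1331369 and 1430373 in epithelium and 5041885 and 5359085 in fibers, while the median density of an island was 27.4 to 28.3 reads per kb in all 4. The deposited files hold called islands only, so the total depth is unknown, and a gene without an island may carry H3.3 below the calling threshold. A wider or more frequent island in fibers is therefore read against all genes. Window length was not matched in these comparisons, and an island of a given size fills less of a longer window. The windows of the 8 genes ran from 10781 bp (Hspb3) to 24374 bp (Hspb8). The average gene window was 7.40% and 7.65% covered in epithelium and 21.0% and 20.9% covered in fibers, and depth and H3.3 content cannot be told apart as the source of this gap. All 7 lens marker genes examined, 3 of epithelium (Foxe3, Pax6 and Cdh1) and 4 of fibers (Mip, Bfsp1, Bfsp2 and Lim2), were more covered in both fiber libraries than in both epithelium libraries, Foxe3 with 0%, 60.7%, 88.5% and 86.6% in epithelium 1, epithelium 2, fiber 1 and fiber 2, so the islands do not check the dissection. With 2 libraries against 2, an exact permutation test has 6 splits and cannot give a two-sided p under 0.33.

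Cryaa (ENSMUSG00000024041.10, chr17:31677807-31681733, + strand) encodes αA-crystallin, which is largely restricted to the lens. Its window was covered to 79.9% in epithelium 1, 90.4% in epithelium 2 and 100% in both fiber libraries. The gene body itself, with exons, introns and coding sequence, lay inside an island in all 4 libraries, so the compartments differed only in the flanks. In the 5 kb upstream, coverage was 44% and 76% in epithelium and 100% in both fiber libraries. The groups did not overlap, with means of 85.2% ± 7.45 and 100% ± 0 (SD, n = 2 each), a difference of 14.8 percentage points and p = 0.33 in the exact permutation test, the smallest possible. The difference was 9.57 points without epithelium 1 and 20.1 points without epithelium 2, and since both fiber windows were fully covered it could not be larger at these epithelium values.

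In both epithelium libraries, the Cryaa window met 2 separate islands. The island over the gene was 17000 bp long with 508 reads in epithelium 1 and 10800 bp with 378 reads in epithelium 2, and a second one upstream was 5600 and 2600 bp long. In fibers, 1 island ran through the upstream break, 28400 bp with 1287 reads in fiber 1 and 28200 bp with 1174 reads in fiber 2. These reached 12006 and 11806 bp before the annotated start. The downstream edge was identical in epithelium 1, fiber 1 and fiber 2, 12467 bp past the gene end, and lay 4867 bp past it in epithelium 2. The fiber islands at Cryaa were longer than 99.0% and 99.4% of the islands of their libraries. Relative length was alike in epithelium, where the island over the gene was longer than 99.6% of islands in epithelium 1 and 99.0% in epithelium 2. No other protein-coding gene lay in these islands, although an antisense transcript, AC090881.2, spans Cryaa, and the assay does not distinguish strands.

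Cryaa also had the densest islands among the 3 genes called in every library. Summed over the islands of the window, it was 30.2 and 33.5 reads per kb in the epithelium libraries, below both fiber libraries at 45.3 and 41.6 reads per kb. The fiber islands were denser than 99.5% and 98.3% of all islands of fiber 1 and fiber 2. The fiber to epithelium ratio of density was 1.36, above that of 99.3% of the 5246 genes with an island in every library, for which the median ratio was 1.02. The ratio was 1.40 with densities divided by the library's median and reversed to 0.363 with densities divided by its total reads in islands. The epithelium densities rest on 22600 and 13400 bp of island and those of fibers on 28400 and 28200 bp.

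**Figure D1:**
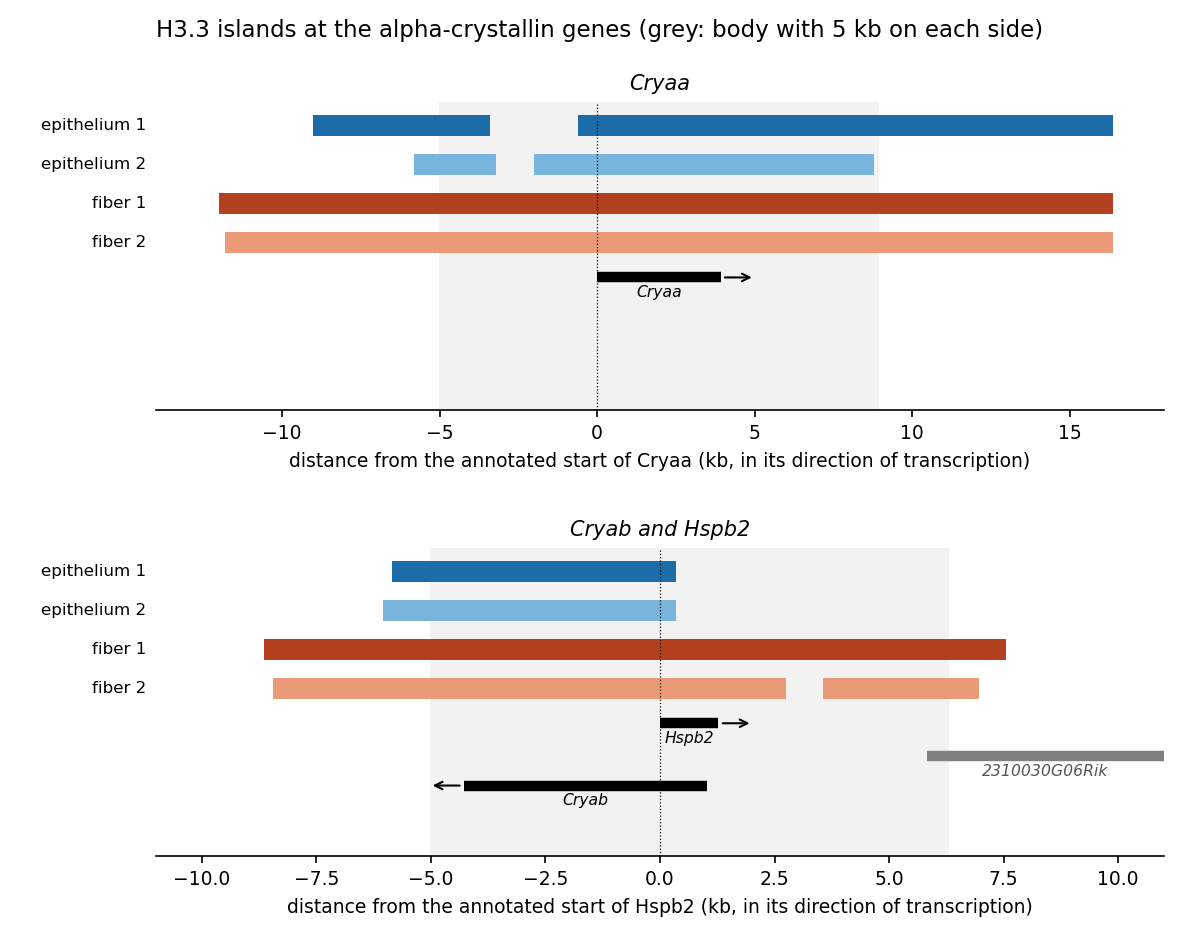
H3.3 islands at Cryaa (top) and at Cryab and Hspb2 (bottom) in each library, drawn as bars against the distance in kb from the annotated start of Cryaa or Hspb2, with protein-coding genes below as thick lines whose arrows give the direction of transcription. The fiber islands span the whole Cryaa window, and both epithelium islands at Cryab and Hspb2 end at the same position, 353 bp inside Hspb2.

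Cryab (ENSMUSG00000032060.10, chr9:50751325-50756636, + strand) encodes αB-crystallin, which is also abundant in heart and muscle, and Hspb2 (ENSMUSG00000038086.4, chr9:50751078-50752354, - strand) encodes a muscle chaperone that binds the myotonic dystrophy protein kinase. The pair is arranged head to head. The first start of the shorter Cryab transcripts and the start of Hspb2 lie 552 bp apart and point away from each other, while 2 longer Cryab transcripts begin inside Hspb2, so that the annotated bodies share 1030 bp. Islands cannot be assigned to 1 of the 2 genes, and their values are not independent.

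The Cryab window was covered to 40.5% and 41.8% in epithelium and to 95.8% and 89.3% in fibers. That of Hspb2 was covered to 47.5% in both epithelium libraries and to 100% and 92.9% in fibers. For both genes every fiber value exceeded every epithelium value. The means differed by 51.4 points for Cryab and 49.0 points for Hspb2, against pooled replicate SDs of 3.33 and 3.55 points (exact permutation p = 0.33 for each, the smallest possible). The difference for Cryab was larger than that of 90.8% of the 14147 genes with an island in any library, and that for Hspb2 larger than that of 89.3%. These ranks were not matched for window length.

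In epithelium, the locus held 1 island of 6200 bp with 167 reads in replicate 1 and of 6400 bp with 213 reads in replicate 2. Both began at the same base, chr9:50752001, and ran along Cryab to 1564 and 1764 bp past its end. Fiber 1 had 1 island of 16200 bp with 534 reads. Fiber 2 had 1 of 11200 bp with 428 reads over both genes and, on the Hspb2 side, another of 3400 bp with 81 reads. The fiber islands therefore extended in both directions, and on the Hspb2 side they reached 2310030G06Rik, the next gene.

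Between the facing starts and along Cryab from the first of them, 100% of the bases were covered in all 4 libraries. The compartments differed at Hspb2, whose body was covered to 27.7% in both epithelium libraries and 100% in both fiber libraries. Of the 546 bp of Hspb2 coding sequence, 17.2% lay in the epithelium islands. Of the 6 annotated Cryab starts, 4 were inside an island in every library, and the 2 within Hspb2 (Cryab-206 and Cryab-202) were inside an island in the fiber libraries only. The locus as a whole, 5559 bp from the first to the last base of the pair, was covered to 83.4% in both epithelium libraries and to 100% in both fiber libraries, a difference of 16.6 points (exact permutation p = 0.33). Since islands are built from 200 bp windows, an edge shared by the replicates is defined to 200 bp at best.

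Read density at the Cryab and Hspb2 islands did not separate the compartments. The epithelium libraries had 26.9 and 33.3 reads per kb and the fiber libraries 33.0 and 34.9, with epithelium 2 above fiber 1. The ratio was 1.13, above that of 82.8% of the genes with an island in every library, and reversed to 0.300 with densities divided by the total reads in islands. Within fiber 2 the island over both genes had 38.2 reads per kb and the neighbouring one 23.8.

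Hspb3 (ENSMUSG00000051456.4, chr13:113662896-113663676, - strand) is an intronless gene whose muscle protein forms complexes with Hspb2. No island was called in its window in either epithelium library. In fibers, coverage was 53.8% in replicate 1 and 64.05% in replicate 2, from islands of 5800 bp with 163 reads and 7800 bp with 215 reads. Both began 1124 bp before the gene start, contained the whole gene and the promoter shown above, and ran 3895 and 5895 bp past its end. The difference of 58.9 points against a pooled replicate SD of 5.12 (exact permutation p = 0.33) was larger than that of 94.7% of genes with an island in any library. It was above those of the other 7 genes in this window, but not with 10 kb on each side, where it was 32.7 points against 48.6 at Hspb2, and without fiber 2 it was 53.8 points against 54.7 at Cryab. Without epithelium 2, Hspb6 reached 74.2 points against 58.9 at Hspb3. With islands of at least median density, Cryab reached 63.6 points and Hspb2 and Hspb6 60.6 points each, against 58.9 at Hspb3. Density was 28.1 and 27.6 reads per kb, close to the median island. When only the densest islands were kept, in the number called in epithelium 1, Hspb3 had no island left in any library. Of the 75-nt stretches in its window, 19.3% occur elsewhere in the assembled chromosomes, none of them in the gene body.

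Hspb6 (ENSMUSG00000036854.14, chr7:30552178-30555443, + strand) encodes the small heat shock protein known for relaxing smooth muscle once phosphorylated. Its window was not covered in epithelium 1 and was covered to 49.9% in epithelium 2, 75.7% in fiber 1 and 72.7% in fiber 2. The fiber values lay above both epithelium values, but the epithelium replicates disagreed, with a mean of 25.0% ± 35.3 (SD, n = 2). The difference of 49.2 points became 24.3 points without epithelium 1 and 74.2 points without epithelium 2. Epithelium 2 had 2 islands, of 3400 bp with 68 reads and of 3600 bp with 103 reads, and the first was sparser than all but 0.284% of the islands of its library.

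The fiber islands at Hspb6 belong to a gene-dense region. Fiber 1 had islands of 4400 bp with 145 reads and 20600 bp with 684 reads, and fiber 2 islands of 7800 bp with 228 reads and 12400 bp with 449 reads. The longer ones reached across Psenen, U2af1l4 and Igflr1 into Kmt2b, a histone methyltransferase gene, and the bodies of Proser3 and Lin37 touch Hspb6 itself. In fiber 1 the gap between its islands fell within Hspb6, so that 63.3% of the gene body was covered there, against 99.3% in epithelium 2 and 100% in fiber 2. Within the gene body the compartments thus overlapped. The second RefSeq promoter of Hspb6 holds GAANNTTC 120 to 113 bases and TATAAA 29 to 24 bases before its start, and all of its 250 bases were inside islands in the same 3 libraries.

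Hspb7 (ENSMUSG00000006221.7, chr4:141420779-141425311, + strand) encodes the cardiovascular small heat shock protein. Coverage of its window was 2.90% in epithelium 1, 26.1% in epithelium 2, 0% in fiber 1 and 27.5% in fiber 2. The compartments overlapped, with a difference of -0.764 points. The 3 islands did not overlap each other either. That of epithelium 1 was 1400 bp with 57 reads and lay 4579 bp or more before the start. That of epithelium 2 was 3800 bp with 94 reads and contained the gene start, and that of fiber 2 was 4000 bp with 105 reads over the end of the gene, without coding sequence, and the bases past it.

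Hspb1 (ENSMUSG00000004951.10, chr5:135887919-135889563, + strand) encodes the widely expressed stress protein that protects the actin cytoskeleton. No island was called in its window in epithelium 1, epithelium 2 or fiber 1. Fiber 2 had 1 island of 3800 bp with 85 reads, which began 118 bp before the start, held the whole gene and covered 32.6% of the window. At 22.4 reads per kb, only 9.20% of the islands of fiber 2 were sparser. The difference of 16.3 points came from that library alone and was 0 without it (exact permutation p = 1). Of the 75-nt stretches of the Hspb1 body, 26.5% occur elsewhere in the assembled chromosomes, against at most 0.336% for the bodies of the other 7 genes, and reads from such stretches cannot be placed uniquely. The part this had in the missing islands was not tested.

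Hspb8 (ENSMUSG00000041548.4, chr5:116408491-116422864, - strand) encodes the partner of Bag3 in directing misfolded proteins to autophagy, and it is the longest of the 8 genes. Its window was covered to 13.1% in epithelium 1, 0% in epithelium 2, 30.4% in fiber 1 and 7.38% in fiber 2. The compartments overlapped, with a difference of 12.3 points and p = 0.67 in the exact permutation test. The 3 islands shared a position, in contrast to those of Hspb7. They began 736, 936 and 936 bp before the gene start in epithelium 1, fiber 1 and fiber 2 and covered the start, the promoter shown above and 62.4% of the coding sequence. They ended at different points in the gene, with lengths of 3200 bp (89 reads), 7400 bp (172 reads) and 1800 bp (60 reads). Without fiber 1, which has the longest, the difference was 0.821 points.

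**Figure D2:**
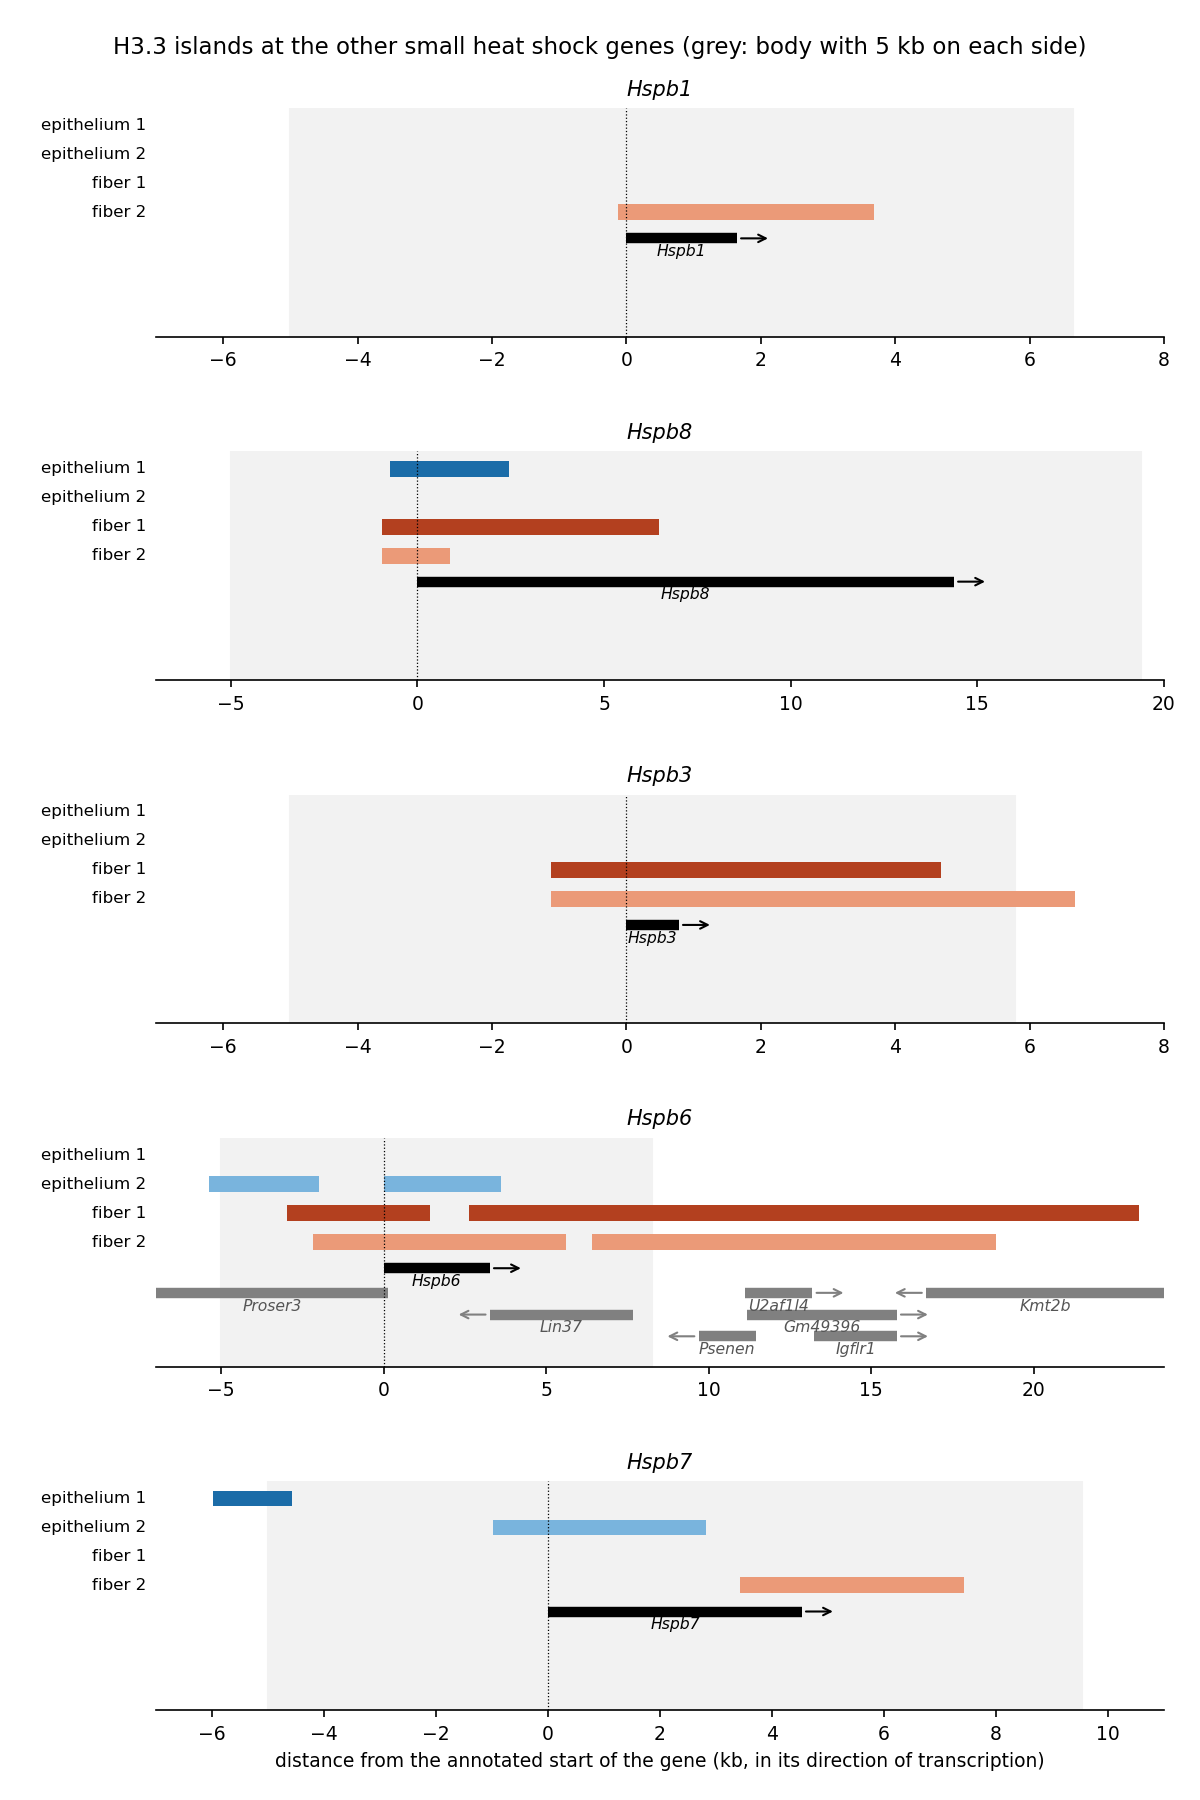
H3.3 islands in the windows of Hspb1, Hspb8, Hspb3, Hspb6 and Hspb7 in each library, drawn as bars against the distance in kb from the annotated start in the direction of the gene, with protein-coding genes that share an island in at least 2 libraries below. Islands at Hspb8 share the gene start, islands at Hspb3 occur in the 2 fiber libraries only, and the 3 islands at Hspb7 lie apart.

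Taking the 8 genes by rule, 3 (Cryaa, Cryab and Hspb2) had an island in the window in every library, against 23.9% of all protein-coding genes. Hspb3 was the 1 gene with islands in both fiber libraries and in no epithelium library, which held for 15.2% of all genes. Each of the 8 had an island in at least 1 library, while 35.6% of all genes had none. The annotated start was inside an island in every library for Cryaa and Hspb2, against 6.16% of all genes. For Cryab, the annotated start is that of the longest transcript, within Hspb2.

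Covered share was higher in both fiber libraries than in both epithelium libraries for 5 of the 8 genes (Cryaa, Cryab, Hspb2, Hspb3 and Hspb6), and 45.0% of all protein-coding genes met the same rule. No member was lower in both fiber libraries, which held for 0.670% of all genes. The direction is thus that of the genome, and because Cryab and Hspb2 share their islands the 5 genes stand for 4 loci. The median difference over the 8 genes was 32.6 points, beside 4.71 points over all genes and 16.0 points over genes with an island in any library. It lay between 16.3 points at Hspb1 and 49.0 points at Hspb2 and counted Cryab and Hspb2 as 2 genes. With the pair counted once, the middle value was the 16.3 points of Hspb1, which rest on fiber 2 alone and are close to the 16.0 points. The median over the 8 genes was 21.6 points without epithelium 1. It was 7.42 points when each library was held to the number of islands in epithelium 1, the densest being kept. The medians over other genes are given for all islands and all 4 libraries only. Among genes with an island in any library, the difference at Cryaa, limited by full coverage in fibers, exceeded that of 47.8% and that at Hspb8 that of 42.5%, whereas that at Hspb7 exceeded that of 5.82%. Neither the medians nor these ranks were matched for window length.

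**Figure D3:**
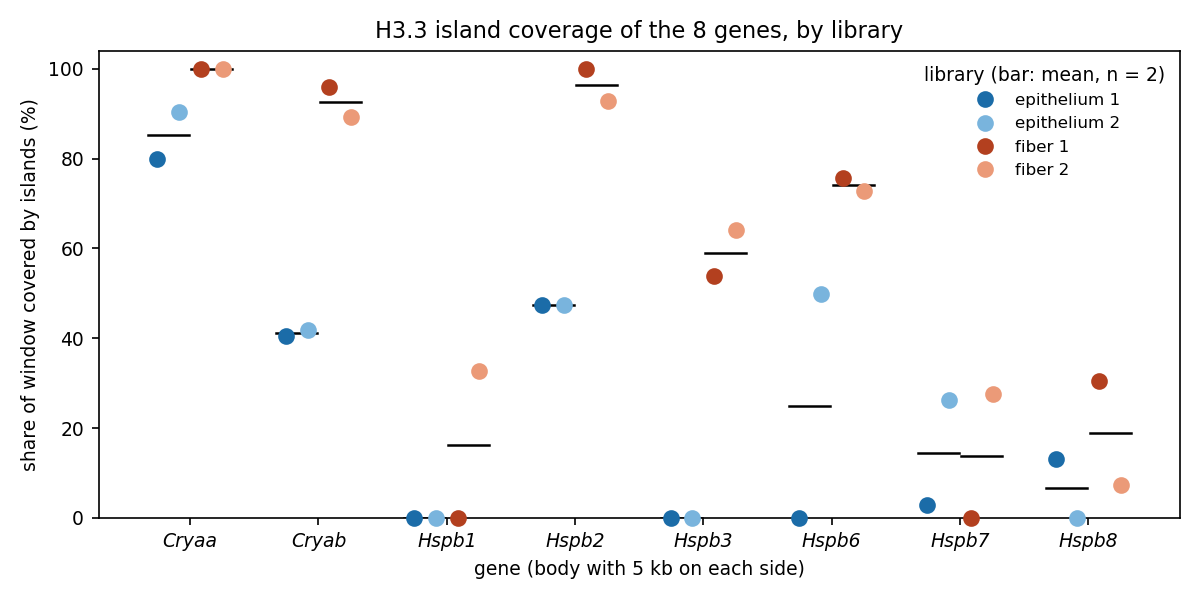
Share of each gene's window (body with 5 kb on each side) covered by H3.3 islands, in percent, with 1 point per library and a bar at the mean of the 2 libraries of a compartment. Both fiber points lie above both epithelium points for Cryaa, Cryab, Hspb2, Hspb3 and Hspb6 and not for Hspb1, Hspb7 and Hspb8.

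**Figure D4:**
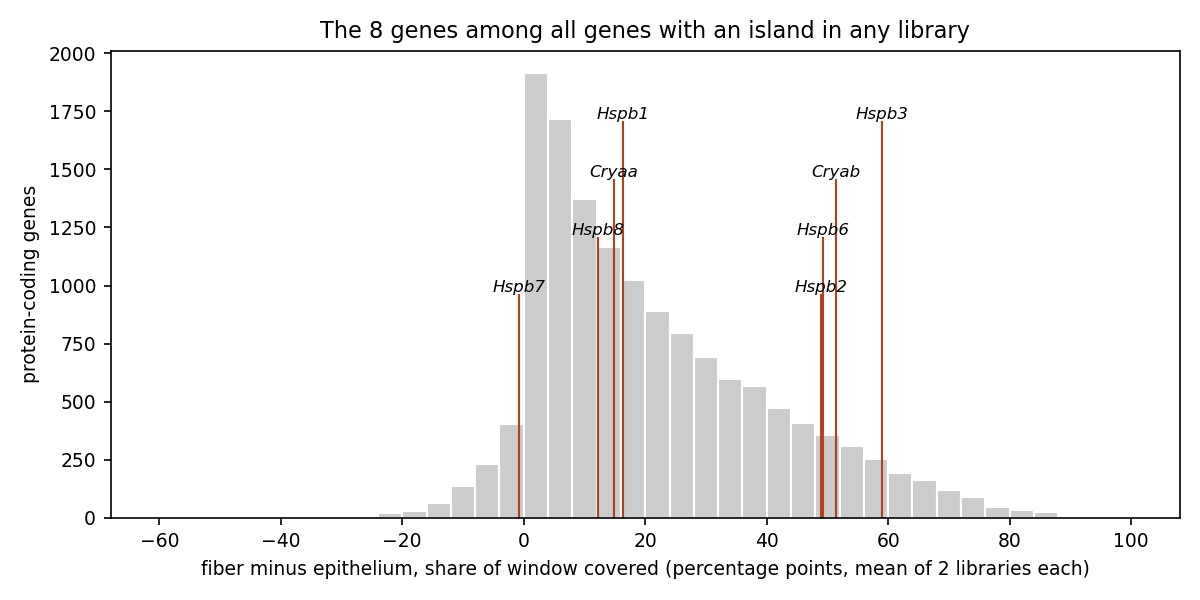
Number of protein-coding genes by the difference between fiber and epithelium in covered share (percentage points, bins of 4 points), for the 14147 genes with an island in any library, with the 8 genes marked by lines whose heights carry no value. Hspb3, Cryab, Hspb6 and Hspb2 lie in the upper tail, Cryaa, Hspb1 and Hspb8 near the middle, and Hspb7 just below 0.

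Read density could be compared for the 3 genes with an island in every library. Only Cryaa was denser in both fiber libraries than in both epithelium libraries, a rule that 30.8% of the 5246 such genes met. Its fiber islands were denser than every other island at the 8 genes. A short island near Hspb7 in epithelium 1 had 40.7 reads per kb, and the second island at Hspb6 in fiber 2 had 36.2. At Hspb8 the order went by length, with 33.3 reads per kb in the 1800 bp island, 27.8 in that of 3200 bp and 23.2 in that of 7400 bp.

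**Figure D5:**
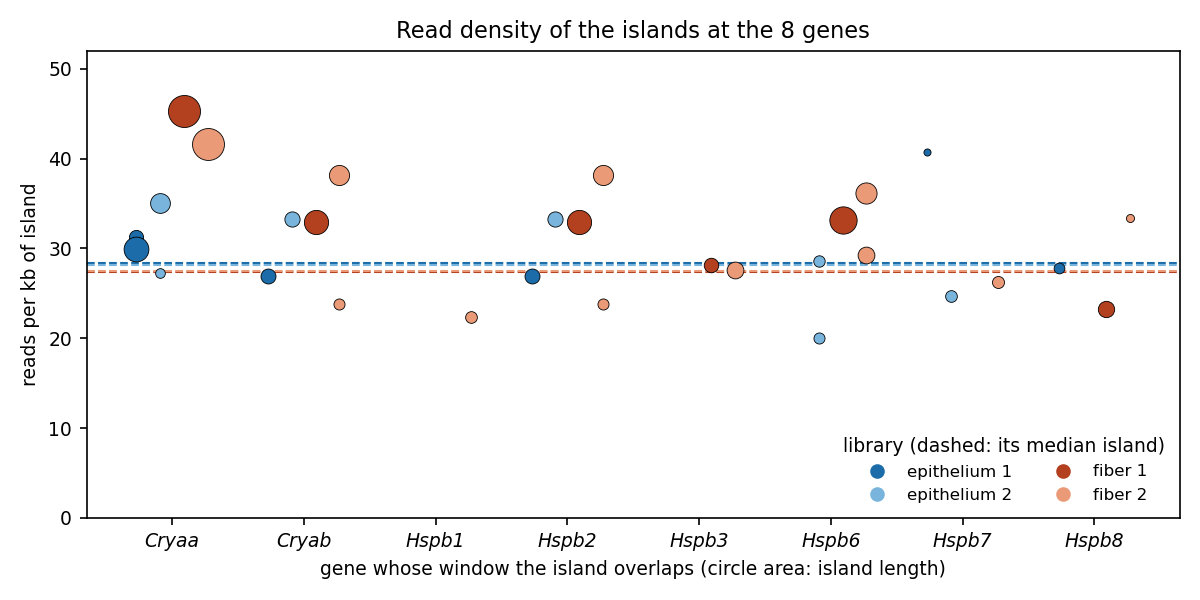
Reads per kb of every island that overlaps the window of a gene, by library, with circle area in proportion to island length and a dashed line at the median of all islands of each library (27.4 to 28.3). The 2 fiber islands at Cryaa are the largest circles and the densest, at 45.3 and 41.6 reads per kb. Cryab and Hspb2 share their islands with each other, so these are drawn at both genes.

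The small heat shock genes work within a larger chaperone system, in which HSP70 and HSP40 proteins refold what the small chaperones hold and heat shock factors drive the genes. Of a list of 36 such genes, 15 had an island in every library (41.7%, against 23.9% of all protein-coding genes). A further 6 had islands in both fiber libraries and in no epithelium library (16.7%, against 15.2%), and 2, Odf1 and Hspa13, had none. Covered share was higher in both fiber libraries than in both epithelium libraries for 24 of them (66.7%, against 45.0%) and lower for none. The median difference was 26.5 points, beside 4.71 points over all genes and 16.0 points over genes with an island in any library. Of 3 further genes listed here under small heat shock genes, whose membership of the family was not examined, 1 (Hspb11) met the rule for higher coverage. So did all 6 HSP40 genes, both chaperonin genes, the HSP110 gene, 3 of 4 heat shock factors, 7 of 11 HSP70, 3 of 4 HSP90 and 1 of 5 co-chaperone genes. Whether genes of the list share islands was not examined, so the counts may include genes that are not independent. The ends of the order were Dnajb1, an HSP40 gene, at 82.0 points and Bag3 at -6.59 points.

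Among the heat shock factors, Hsf4 is the one known for its requirement in the lens, where its mutation causes cataract. Its window was covered to 18.7% and 55.1% in epithelium and to 94.7% and 100% in fibers, and the ratio of read density was 1.31. Hsf1, the general stress factor, was covered to 0% and 9.61% in epithelium and 71.1% and 62.9% in fibers. Hsf2 had an island in fiber 2 only (10.9%), and Hsf5 reached 4.58% and 5.35% in fibers and 0% in epithelium. Bag3, the partner of Hspb8, was covered to 27.0% and 6.59% in epithelium and 15.0% and 5.39% in fibers, so that the compartments overlapped as they did at Hspb8. Values for Hspa1a and Hspa1b are uncertain, because 54.2% and 55.8% of the 75-nt stretches in their bodies are repeated elsewhere.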

How the data were processed

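Chromatin of newborn lens epithelium and fibers, 2 biological replicates each, was immunoprecipitated for H3.3 and sequenced by the authors as single-end reads of 75 nt. The authors mapped these with BWA to mm10 and called islands with SICER in each library on its own, using 200 bp windows joined across gaps of up to 600 bp at an FDR of 0.01, as the file names give them. The deposited values are raw read counts per island, not scaled to depth. Total reads, duplicate removal and use of the input are not given in the sources used here.

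Island starts count from 0 and ends are inclusive; they were converted to positions from 1. The annotation was GENCODE vM21 and the promoters those of RefSeq (GRCm38.p6). For each gene, bases of the window inside islands were counted, and reads per kb was the summed reads over the summed length of the overlapping islands. The named genes were the 8 members, genes sharing an island with them in at least 2 libraries, the 36 chaperone genes, by counts with values for the ends of the order, the heat shock factors and Bag3, and for Cryaa and Cryab the 3 genes on other chromosomes closest in Euclidean distance over 8 values, log2(x + 1) of the length and the reads per kb of the longest island in each library. Members and lists were chosen with earlier results of these data known, and the 7 lens marker genes were added after the data were seen. Of the genes neighbouring the members, 1 is not reported here. Compartments were compared by an exact two-sided permutation test over libraries. Stretches of 75 nt were searched on both strands of the assembled chromosomes. The functions were tested on simulated data. Python 3.11.15, numpy 2.4.6, numba 0.67.0 and matplotlib 3.10.9 were used. The alternatives were other windows, other island thresholds, joining of islands closer than 1 kb, scaling of the read counts, leaving out each library and a replicate block. All comparisons rest on 2 libraries per group, and no value here carries an interval for counting error.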

Additional observations from a re-analysis of the deposited data

How the results depend on the processing

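Of 3 genes with an island in every library, 1 was left when islands below the median density of their library were dropped. The count of genes with higher coverage in both fiber libraries went from 5 to 3 in the gene body alone and to 3 with equal island numbers per library taken by reads per kb. Shares over all protein-coding genes are given for the main windows and islands only. A change in these counts therefore cannot be told apart from a change over all genes. The median difference of 32.6 points counts Cryab and Hspb2 as 2 genes although they share their islands. It was 21.6 to 39.0 points when 1 library was left out and 24.5 in the gene body alone. With equal island numbers it was 7.42 taken by reads per kb and 23.7 taken by read count. It was 40.1 with islands of at least median density. The median density ratio over 3 genes, 1.13, is that of the islands shared by Cryab and Hspb2. With islands of at least median density it was 1.33, where it is the ratio of Cryaa alone (1.36 with all islands). Over the 3 genes it was 0.300, in the reverse direction, once each density was divided by the library's total reads in islands. That total is itself larger in fibers. The difference at the Cryab and Hspb2 locus of 16.6 points became 31.4 and 47.2 with 2 and 10 kb on each side and 58.3 with islands of at least median density. For single genes, 70 alternative values moved by less than the replicate spread and 34 by at least that much, a size that leaving out a library reaches by construction where the replicates of the other compartment were equal, and none reversed the difference at Cryaa, Cryab, Hspb2, Hspb3 or Hspb6, although it was 0 for Cryaa in the gene body alone and for Hspb3 with equal island numbers taken by reads per kb. Same-numbered libraries did not deviate together in covered share (correlation 0.00635 over 14147 genes). This cannot show whether they came from the same lenses. With a replicate block, where no p under 0.5 is possible, 6 genes were higher in fibers in both pairs. The share of all genes that meet this paired rule is not given here. The ratio was 1.13. The median difference (32.6 points) and the locus difference (16.6 points) are the same with and without the block by construction, so they check nothing. Called islands with unknown depth limit all values.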

Other observations

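For Cryaa and Cryab, the 3 protein-coding genes on other chromosomes with the most similar longest islands over the 4 libraries were listed, by Euclidean distance over 8 values of length and density. Closest to Cryaa were Lfng, which encodes a modifier of Notch receptors, and Ttyh3, which share their islands, at a distance of 0.310, and then Bahcc1 at 0.666. The island at Lfng and Ttyh3 was 17200 and 11600 bp long in epithelium and 25600 and 27200 bp in fibers, at 32.0, 34.7, 40.5 and 37.2 reads per kb in the same order. Closest to Cryab were Pex10, a peroxisome biogenesis gene, and Rer1, which again share their islands, at 0.357, and Tspan9, a tetraspanin gene, at 0.359. At Pex10 and Rer1 the longest island was 6800 and 6400 bp in epithelium and 17000 and 11800 bp in fibers.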
